A study of Homo sapiens with 12 samples.

Results

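The genes described here are 47 that copy the genome: those that license and fire replication origins, build the replication fork and supply deoxynucleotides. They were chosen by function, by a fixed list of symbols, with earlier results of these data known. Each of the 47 symbols matched 1 of the 61552 gene identifiers counted. Their transcripts were measured by RNA-seq in RD cells, a human line that came from an embryonal rhabdomyosarcoma. This childhood tumour resembles muscle precursors that have stopped maturing. The labels class the line as fusion-negative (FN-RMS), that is, without the PAX-FOXO1 gene fusion of the other main type of this tumour. The cells carried either siRNA against EHMT1 (n = 3 libraries) or scrambled siRNA (n = 3 libraries), delivered with Lipofectamine RNAiMAX, and RNA was taken after 48 h. Both groups grew in RPMI medium with fetal bovine serum and antibiotics. EHMT1 (GLP) is the partner of EHMT2 (G9a), and the pair methylates histone H3. The labels name neither the siRNA sequences nor separate cultures for the replicates, and a transfected culture can hold cells that the siRNA did not reach. The other libraries of the series, with SOX8 siRNA and their own scrambled controls, were not analysed here.

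DNA replication begins in G1, when the origin recognition complex (ORC), CDC6 and CDT1 load rings of MCM2 to MCM7 onto origins. In S phase CDC45 and the GINS complex join the ring and turn it into the moving helicase, and DNA polymerases alpha, delta and epsilon copy the unwound strands behind it. PCNA, the sliding clamp, holds polymerases on DNA, and ribonucleotide reductase and thymidylate synthase make the building blocks. Many of these genes are known targets of E2F transcription factors and are transcribed mainly in late G1 and S phase, so dividing tumour cells express them at high levels.

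The targeted transcript was lower in each library labelled as EHMT1 siRNA. EHMT1 had 53.2, 54.4 and 57.6 CPM in EHMT1 siRNA replicates 1, 2 and 3, against 131, 156 and 130.1 CPM in scrambled siRNA replicates 1, 2 and 3. The groups did not overlap, and the EHMT1 siRNA mean was 39.6% of the scrambled mean, with a log2 fold change of -1.34 (adjusted p = 9.13e-09 by edgeR, SE 0.072). CPM are a gene's counts as a share of its library's gene counts, after scaling with TMM factors. Gene counts were between 40639655 and 47258481 per library. The 8 muscle markers listed for RD cells summed to 1268 to 1326 CPM in EHMT1 siRNA libraries and 1130 to 1281 CPM in scrambled ones, and of the 7 tested 1, PAX7, rose (0.28, edgeR adjusted p = 0.00580). The defining ones, MYOD1 and MYOG, had 155 ± 13.2 and 44.9 ± 2.53 CPM in EHMT1 siRNA libraries and 151 ± 9.28 and 49.5 ± 6.66 CPM in scrambled siRNA libraries (SD, n = 3 each), while MYF5 had 0 counts in each library, which allows at most 0.0751 CPM in the shallowest (3 counts). The 4 leukocyte markers summed to 0.118 to 0.366 CPM in EHMT1 siRNA libraries and 0.1001 to 0.188 CPM in scrambled ones, and the 4 epithelial markers to 0.410 to 0.439 and 0.214 to 0.476 CPM. Of the 4 endothelial markers, which summed to 16.6 to 18.1 CPM and 16.3 to 17.8 CPM in the same order, TEK held nearly the whole sum.

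Most of the replication genes were lower after EHMT1 siRNA. Of the 47 genes, all of which passed the filter on low counts, 36 fell and 0 rose (edgeR, adjusted p under 0.05 over 18646 genes), and the other 11 did not pass the test. The share that fell was 76.6%, against 6.54% of all genes tested, of which 5.81% rose, and against 10.7% of the 9759 genes at an average of 10 CPM or more. This list and the gene lists below were drawn up with earlier results of these data known, so such shares are descriptions and not tests. At an unadjusted p under 0.05, 44 of the 47 were lower and 0 higher with edgeR, DESeq2 and limma-voom alike. These tools were run on the same libraries, so their counts are not independent. The share of all genes at an unadjusted p under 0.05 was not counted, here or for the lists below. In 41 genes all 3 EHMT1 siRNA libraries lay below all 3 scrambled ones, a pattern found for 15.5% of all genes tested. All 47 had a negative log2 fold change, beside 49.8% of all genes. The changes were small. The log2 fold changes ran from -0.66 for LIG1 to -0.03 for ORC2 with a median of -0.28, beside a median of 0.00 over all genes tested, and 1 of the 47 exceeded a 1.5-fold change. In bulk RNA, a smaller share of cells in S phase and less of each transcript per cell cannot be told apart. The labels do not say whether the replicates were separate cultures, so the p-values measure the spread between these libraries, which may be technical.

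**Figure D1:**
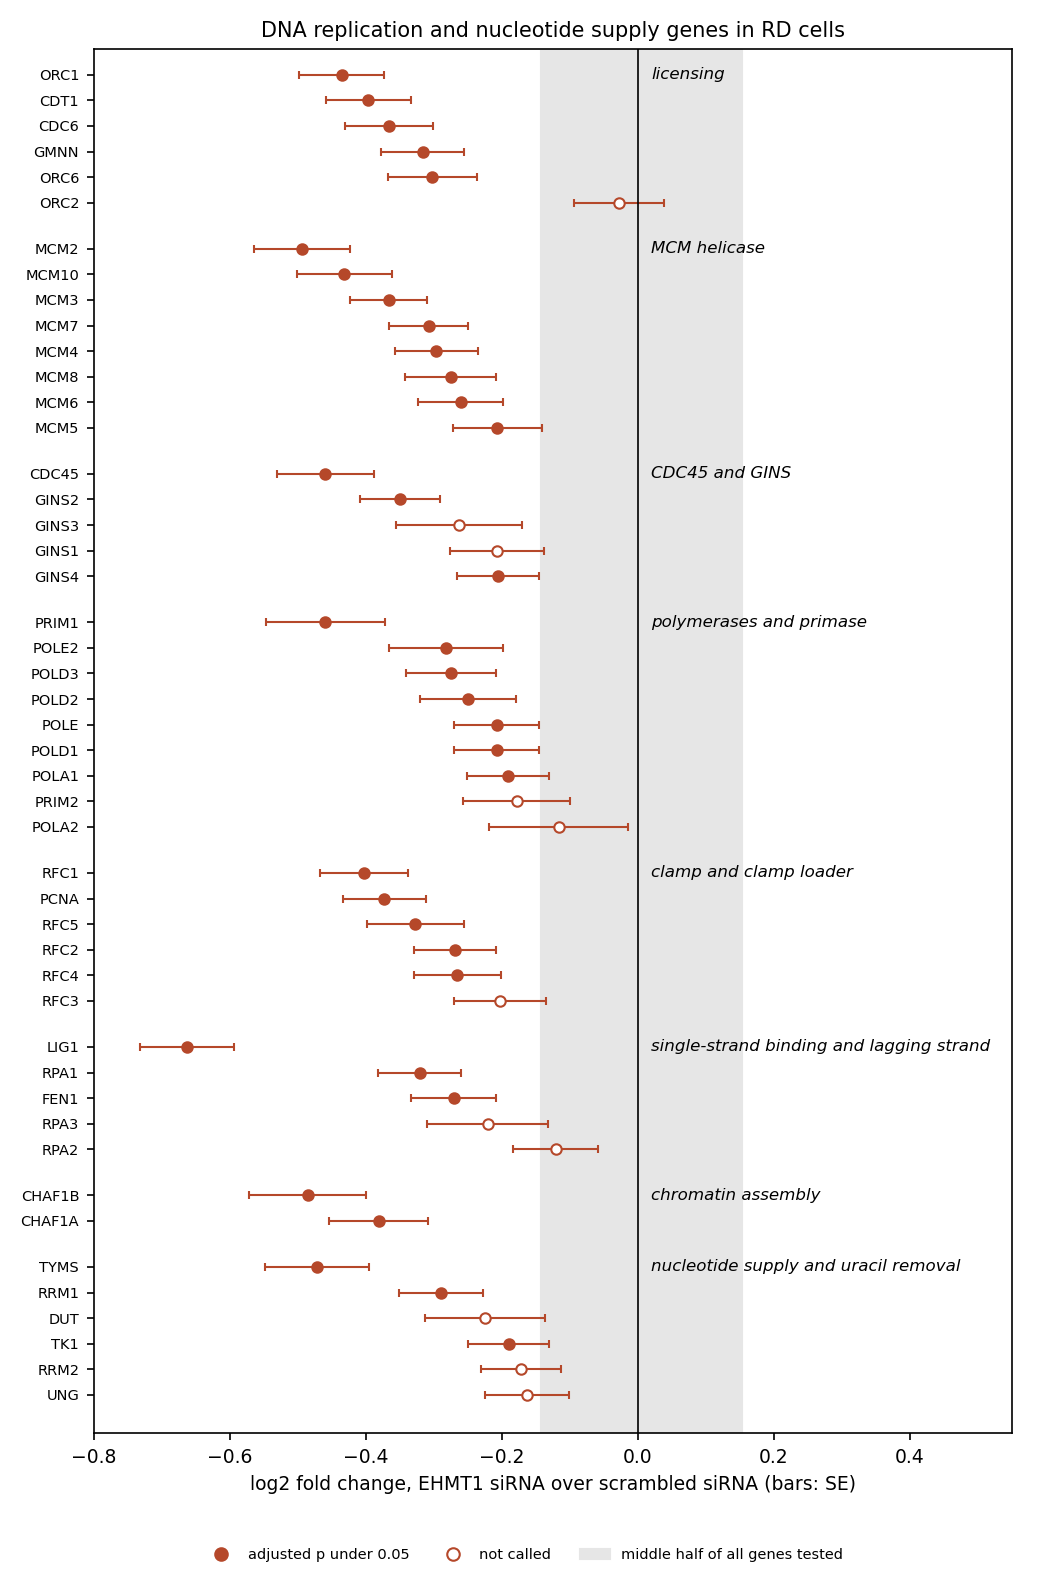
Log2 fold change of each of the 47 replication genes, EHMT1 siRNA over scrambled siRNA (x axis, bars are SE, n = 3 libraries each), grouped by role. Filled points passed an edgeR adjusted p of 0.05 and open points did not. The grey band is the middle part of all genes tested, from the 25th to the 75th percentile, and 36 filled points lie to its left, with LIG1 furthest at -0.66 and ORC2 nearest 0 at -0.03.

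Among the licensing genes, 5 of 6 fell. ORC1, the regulatory ATPase subunit of the origin recognition complex, had 59.6, 59.9 and 56.6 CPM in EHMT1 siRNA replicates 1, 2 and 3, against 83.7, 81.1 and 73.4 CPM in scrambled siRNA replicates 1, 2 and 3. All 3 EHMT1 siRNA libraries lay below the lowest scrambled library, and ORC1 fell, at a log2 fold change of -0.44 (adjusted p = 0.000260 by edgeR, SE 0.063). CDT1, which brings the MCM ring to the origin, had 41.1, 39.8 and 41.8 CPM in the EHMT1 siRNA libraries, against 51.3, 57.3 and 53.2 CPM in the scrambled siRNA libraries. CDC6, the ATPase that loads the ring with CDT1, had 68.1, 64.8 and 66.8 CPM in the EHMT1 siRNA libraries, against 89.1, 90.4 and 77.7 CPM in the scrambled siRNA libraries. Neither gene's groups overlapped, and their log2 fold changes were -0.40 and -0.37 (adjusted p = 0.000561 and 0.00138 by edgeR, SE 0.063 and 0.065). GMNN encodes geminin, the inhibitor that keeps CDT1 from loading more rings in S phase, and it also fell, at a log2 change of -0.32 (edgeR adjusted p = 0.00254). The loader and its inhibitor were thus lower in the same libraries, as was ORC6, a small ORC subunit, at -0.30 (edgeR adjusted p = 0.00587). ORC2, a core subunit of the same complex as ORC1, stood apart with 76.7, 70.4 and 72.4 CPM in the EHMT1 siRNA libraries, against 79.9, 68.1 and 75.7 CPM in the scrambled siRNA libraries. Its groups overlapped and it did not pass the test, at a log2 change of -0.03 (adjusted p = 0.841 by edgeR, SE 0.066).

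All 8 genes listed with the MCM helicase fell, and none had overlapping groups. MCM2 had 113, 111 and 111 CPM in EHMT1 siRNA replicates 1, 2 and 3, against 156, 176 and 140.0 CPM in scrambled siRNA replicates 1, 2 and 3. The EHMT1 siRNA mean was 71.0% of the scrambled mean, the lowest share in the ring, at a log2 change of -0.49 (adjusted p = 0.000239 by edgeR, SE 0.070). MCM3 had 128, 126 and 127 CPM in the EHMT1 siRNA libraries, against 167, 169 and 155 CPM in the scrambled siRNA libraries, a log2 change of -0.37 (edgeR adjusted p = 0.000460). For the other ring subunits the log2 changes were -0.31 for MCM7, -0.30 for MCM4, -0.26 for MCM6 and -0.21 for MCM5, with edgeR adjusted p of 0.00232, 0.00414, 0.0110 and 0.0478. MCM5 had the smallest change of the group, with 124, 126 and 128 CPM in the EHMT1 siRNA libraries, against 136, 161 and 138 CPM in the scrambled siRNA libraries. Its highest EHMT1 siRNA library and its lowest scrambled library differed by less than the scrambled libraries differed among themselves. The differences between the changes of the 6 ring subunits were not tested. MCM10, which is not part of the ring and helps to activate it, had 38.6, 37.0 and 36.0 CPM in the EHMT1 siRNA libraries, against 53.0, 52.4 and 45.1 CPM in the scrambled siRNA libraries, at a log2 change of -0.43 (edgeR adjusted p = 0.000716). MCM8, which works with MCM9 in repair by recombination, fell to 23.2 ± 0.686 CPM in EHMT1 siRNA libraries, against 28.1 ± 0.706 CPM in scrambled siRNA libraries (SD, n = 3 each; edgeR adjusted p = 0.0122).

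Of CDC45 and the 4 GINS subunits, which complete the active helicase, 3 fell and 5 of 5 had groups that did not overlap. CDC45 had 27.2, 26.8 and 27.6 CPM in EHMT1 siRNA replicates 1, 2 and 3, against 38.3, 39.9 and 34.0 CPM in scrambled siRNA replicates 1, 2 and 3. Its log2 change was -0.46 (adjusted p = 0.000461 by edgeR, SE 0.071), about as large as that of MCM2. GINS2 had 40.2, 38.9 and 38.9 CPM in the EHMT1 siRNA libraries, against 49.7, 51.6 and 49.1 CPM in the scrambled siRNA libraries, a log2 change of -0.35 (edgeR adjusted p = 0.000970). GINS4 had 37.7, 36.4 and 38.2 CPM in the EHMT1 siRNA libraries, against 42.3, 44.0 and 43.1 CPM in the scrambled siRNA libraries, a smaller difference that just passed (-0.21, edgeR adjusted p = 0.0335). GINS1 and GINS3 did not pass, with log2 changes of -0.21 and -0.26 (adjusted p = 0.0587 and 0.0740 by edgeR, SE 0.069 and 0.093). For GINS3 the libraries held 15.6, 13.6 and 13.3 CPM in the EHMT1 siRNA libraries, against 19.0, 15.7 and 16.2 CPM in the scrambled siRNA libraries, so that the highest EHMT1 siRNA value nearly reached the lowest scrambled one.

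**Figure D2:**
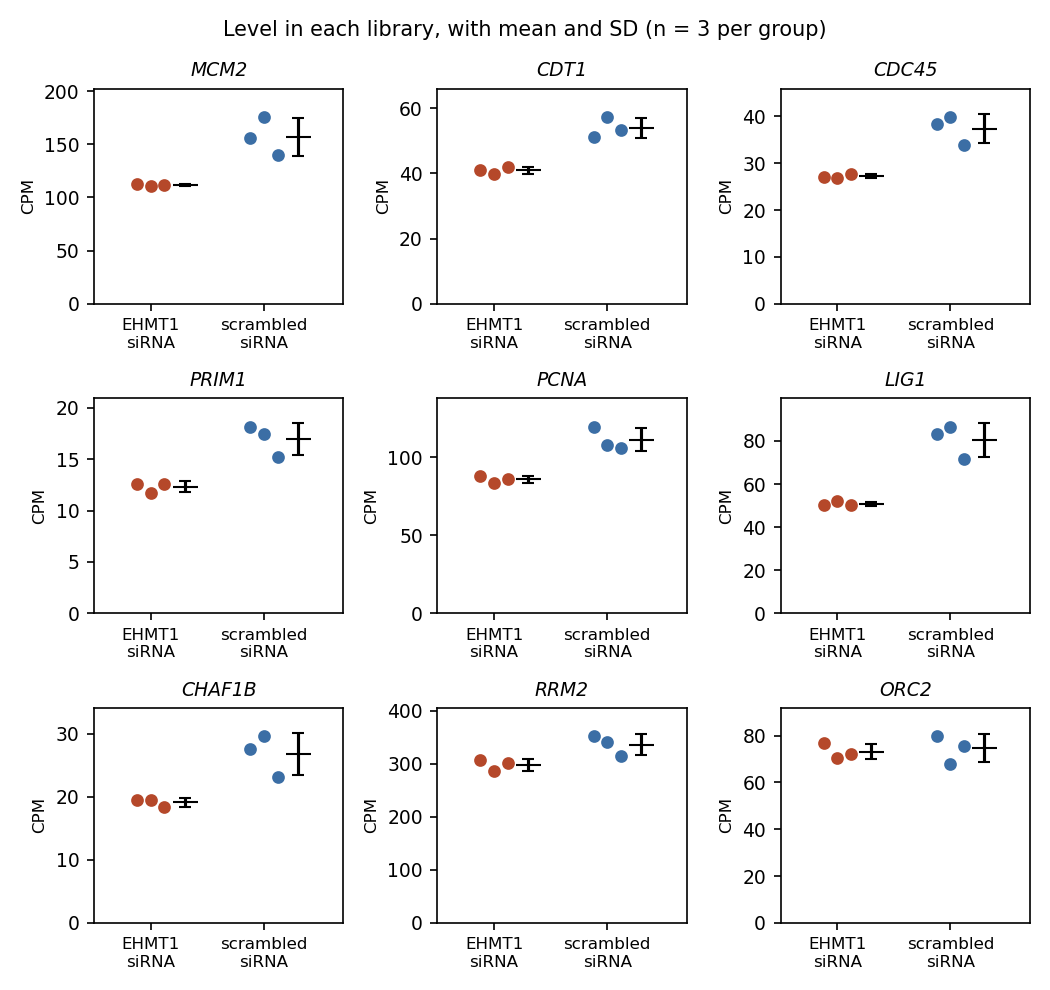
CPM of 9 replication genes in each library (points), with the mean and SD of each group beside them (n = 3 libraries each) and axes from 0. In MCM2, CDT1, CDC45, PRIM1, PCNA, LIG1, CHAF1B and RRM2 each EHMT1 siRNA point lies below each scrambled point, while in ORC2 the groups overlap; RRM2 and ORC2 did not pass the test.

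Polymerase and primase genes showed 7 falls among 9, most of them close to the threshold. PRIM1, the catalytic primase subunit that makes the RNA primers, had 12.6, 11.7 and 12.6 CPM in EHMT1 siRNA replicates 1, 2 and 3, against 18.2, 17.4 and 15.2 CPM in scrambled siRNA replicates 1, 2 and 3. With no overlap and a log2 change of -0.46 (adjusted p = 0.00232 by edgeR, SE 0.087) it had the largest change of the group. Its partner PRIM2, the large primase subunit, had 33.0, 29.8 and 29.9 CPM in the EHMT1 siRNA libraries, against 38.2, 35.6 and 30.9 CPM in the scrambled siRNA libraries, and did not pass, at -0.18 (adjusted p = 0.162 by edgeR, SE 0.079). The difference between the primase subunits was not tested. POLD3 and POLD2, accessory subunits of polymerase delta, which extends the lagging strand, had log2 changes of -0.28 and -0.25 (edgeR adjusted p = 0.0114 and 0.0273). POLD3 had 28.9, 30.4 and 29.2 CPM in the EHMT1 siRNA libraries, against 37.2, 36.3 and 33.6 CPM in the scrambled siRNA libraries. POLD2 had 137, 145 and 143 CPM in the EHMT1 siRNA libraries, against 157, 191 and 158 CPM in the scrambled siRNA libraries, with scrambled replicate 2 well above the other libraries. The catalytic subunits POLD1, POLE and POLA1 of polymerases delta, epsilon and alpha changed by -0.21, -0.21 and -0.19 (edgeR adjusted p = 0.0374, 0.0384 and 0.0465), and POLE2, an accessory subunit of epsilon, by -0.28 (edgeR adjusted p = 0.0351). POLA2, the accessory subunit of polymerase alpha, had 7.24, 7.74 and 8.11 CPM in the EHMT1 siRNA libraries, against 9.10, 7.74 and 8.15 CPM in the scrambled siRNA libraries. Its groups overlapped, and it did not pass (-0.12, SE 0.102, edgeR adjusted p = 0.521).

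The clamp and 4 of the 5 subunits of its loader fell, and the groups of all 6 genes were apart. PCNA had 87.8, 83.5 and 86.1 CPM in EHMT1 siRNA replicates 1, 2 and 3, against 119.5, 108 and 106 CPM in scrambled siRNA replicates 1, 2 and 3. Its log2 change was -0.37 (adjusted p = 0.000733 by edgeR, SE 0.061). RFC1, the largest subunit of replication factor C, which opens the clamp and closes it around DNA, had 60.5, 60.4 and 60.0 CPM in the EHMT1 siRNA libraries, against 87.6, 76.9 and 74.7 CPM in the scrambled siRNA libraries. The EHMT1 siRNA libraries of RFC1 lay within 1 CPM of each other, and the log2 change of -0.40 (edgeR adjusted p = 0.000666) was the largest of the loader. RFC5 had 25.3, 22.9 and 24.7 CPM in the EHMT1 siRNA libraries, against 32.4, 30.1 and 28.99 CPM in the scrambled siRNA libraries, a log2 change of -0.33 (edgeR adjusted p = 0.00619), and the small subunits RFC2 and RFC4 changed by -0.27 and -0.27 (edgeR adjusted p = 0.00773 and 0.0119). RFC3 had 30.1, 28.7 and 27.4 CPM in the EHMT1 siRNA libraries, against 34.3, 31.4 and 33.4 CPM in the scrambled siRNA libraries, and its log2 change of -0.20 did not pass (edgeR adjusted p = 0.0594).

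LIG1, the ligase that seals the fragments of the lagging strand, had the largest change of the 47 genes. It had 50.5, 51.9 and 50.2 CPM in EHMT1 siRNA replicates 1, 2 and 3, against 83.2, 86.7 and 71.7 CPM in scrambled siRNA replicates 1, 2 and 3. The EHMT1 siRNA mean was 63.2% of the scrambled mean, and the log2 change was -0.66 (adjusted p = 1.22e-05 by edgeR, SE 0.069). FEN1, the nuclease that trims the flaps before LIG1 acts, had 63.4, 60.4 and 65.2 CPM in the EHMT1 siRNA libraries, against 79.9, 77.6 and 70.5 CPM in the scrambled siRNA libraries. RPA1, the large subunit of the protein that coats unwound DNA, had 137, 126 and 129 CPM in the EHMT1 siRNA libraries, against 174, 152 and 163 CPM in the scrambled siRNA libraries. Both fell without overlap, at log2 changes of -0.27 and -0.32 (edgeR adjusted p = 0.00912 and 0.00252). The other subunits of the RPA trimer, RPA2 and RPA3, had overlapping groups and did not pass. RPA2 had 98.2, 90.8 and 90.8 CPM in the EHMT1 siRNA libraries, against 103, 107 and 94.4 CPM in the scrambled siRNA libraries (log2 change -0.12, edgeR adjusted p = 0.236). RPA3 had 37.1, 37.7 and 37.5 CPM in the EHMT1 siRNA libraries, against 49.0, 35.7 and 46.0 CPM in the scrambled siRNA libraries (log2 change -0.22, edgeR adjusted p = 0.123), with scrambled replicate 2 below each EHMT1 siRNA library.

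CHAF1A and CHAF1B, the members listed for chromatin assembly factor 1, which places histones H3 and H4 on new DNA behind the fork, both fell. CHAF1B had 19.4, 19.5 and 18.3 CPM in EHMT1 siRNA replicates 1, 2 and 3, against 27.5, 29.6 and 23.1 CPM in scrambled siRNA replicates 1, 2 and 3. CHAF1A had 85.3, 85.9 and 85.5 CPM in the EHMT1 siRNA libraries, against 109.7, 126 and 98.9 CPM in the scrambled siRNA libraries. Neither gene's groups overlapped, although the scrambled libraries spread widely, and the log2 changes were -0.49 and -0.38 (adjusted p = 0.00141 and 0.00234 by edgeR, SE 0.086 and 0.072).

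The genes that supply nucleotides or remove uracil included 3 that fell, of 6. TYMS, thymidylate synthase, had 24.1, 22.2 and 23.8 CPM in EHMT1 siRNA replicates 1, 2 and 3, against 30.6, 35.9 and 30.7 CPM in scrambled siRNA replicates 1, 2 and 3. It fell, at a log2 fold change of -0.47 (adjusted p = 0.000711 by edgeR, SE 0.076), without overlap. In GENCODE 29, ENOSF1 and TYMSOS lie on the opposite strand over 46.6% of its exon bases, and the files set apart reads that fall in more than 1 gene. A further column of the files, called the second strand column here, counts reads of 1 strand only and holds 87.1% to 89.0% of the counts in both strand columns. The unstranded count of TYMS was 17.7% of its count there. In that column TYMS had 140.0, 128 and 137 CPM in the EHMT1 siRNA libraries, against 190.2, 172 and 175 CPM in the scrambled siRNA libraries, and the log2 change was -0.41 (adjusted p = 0.000205 by edgeR, SE 0.058). RRM1, the large catalytic subunit of ribonucleotide reductase, had 137, 132 and 135 CPM in the EHMT1 siRNA libraries, against 179, 160.4 and 154 CPM in the scrambled siRNA libraries, a log2 change of -0.29 (edgeR adjusted p = 0.00545). RRM2, its small subunit, whose level varies over the cell cycle, had 307, 285 and 302 CPM in the EHMT1 siRNA libraries, against 352, 341 and 314 CPM in the scrambled siRNA libraries. Although its groups did not overlap, RRM2 did not pass (-0.17, SE 0.059, edgeR adjusted p = 0.0683). TK1, the salvage thymidine kinase, had 83.7, 78.1 and 86.3 CPM in the EHMT1 siRNA libraries, against 91.7, 97.9 and 93.4 CPM in the scrambled siRNA libraries, and just passed (-0.19, edgeR adjusted p = 0.0439). DUT, which breaks down dUTP, had 35.8, 30.3 and 35.5 CPM in the EHMT1 siRNA libraries, against 44.8, 34.4 and 39.4 CPM in the scrambled siRNA libraries; the groups overlapped and it did not pass (-0.22, edgeR adjusted p = 0.113). UNG, the glycosylase that removes uracil from DNA, did not pass either, at 68.0 ± 1.64 CPM in EHMT1 siRNA libraries and 76.1 ± 5.26 CPM in scrambled siRNA libraries (SD, n = 3 each; edgeR adjusted p = 0.0994).

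Other members share exon bases with neighbouring genes, so the strand column gave a second reading of them. For MCM2 the unstranded count was 78.2% of the second strand count, and for GINS3, PRIM1 and RFC5 it was 80.4%, 80.6% and 83.1%. In the second strand column MCM2 had a log2 change of -0.46, PRIM1 of -0.39 and RFC5 of -0.32 (edgeR adjusted p = 7.64e-05, 0.00690 and 0.00542). GINS3 passed the test there, with 18.3, 17.1 and 15.9 CPM in the EHMT1 siRNA libraries, against 24.0, 20.5 and 20.5 CPM in the scrambled siRNA libraries (log2 change -0.34, edgeR adjusted p = 0.0115). GINS4, whose unstranded count was 57.9% of the second strand count, lost its call there, with 66.3, 64.3 and 67.7 CPM in the EHMT1 siRNA libraries, against 76.4, 70.5 and 72.7 CPM in the scrambled siRNA libraries (log2 change -0.15, edgeR adjusted p = 0.0993). TK1 lost its call there too, with 76.0, 70.4 and 79.2 CPM in the EHMT1 siRNA libraries, against 83.2, 87.6 and 84.7 CPM in the scrambled siRNA libraries (log2 change -0.18, edgeR adjusted p = 0.0511). In all, 35 of the 47 genes fell in the second strand column, beside 6.62% of all genes tested there. Of these 35, 34 were among the 36 that fell in the unstranded column.

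Levels per length differed widely within complexes. On the RPKM scale (CPM per kilobase of merged exons), the ring subunits other than MCM7 lay between 30.8 ± 0.3001 for MCM2 and 48.1 ± 1.30 for MCM4 in EHMT1 siRNA libraries and between 41.1 ± 3.92 for MCM5 and 59.0 ± 4.28 for MCM4 in scrambled siRNA libraries (SD, n = 3 each). MCM7 was the highest of the 47 genes, at 124 ± 1.60 and 153 ± 9.54 RPKM in the same order. RRM2 followed at 77.2 ± 2.93 RPKM with EHMT1 siRNA and 87.0 ± 5.02 RPKM with scrambled siRNA, above its partner RRM1 at 40.1 ± 0.704 and 49.0 ± 3.87 RPKM. In the clamp loader RFC2 was highest, at 48.9 ± 0.711 and 58.9 ± 4.08 RPKM, while RFC3, at 9.99 ± 0.466 and 11.5 ± 0.508 RPKM, and RFC5, at 9.88 ± 0.499 and 12.4 ± 0.708 RPKM, were lowest. POLA2, at 2.05 ± 0.116 and 2.22 ± 0.188 RPKM, was the lowest of the 47, but 35.1% of its exon bases are shared with another gene on the same strand, so reads there are set apart in either column. The level of TYMS is understated on this scale, and so is that of MCM2, whose unstranded count was 78.2% of its second strand count. In the second strand column MCM2 had a mean of 145 CPM in EHMT1 siRNA libraries, above MCM5 at 113 CPM. The lowest place of MCM2 among the ring subunits thus depends on the column. Levels of the other genes with shared exons can be understated too.

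The 47 genes as a group were lower in each EHMT1 siRNA library. Summed over the 47 genes, the level was 3788, 3674 and 3729 CPM in EHMT1 siRNA replicates 1, 2 and 3, against 4674, 4663 and 4300.1 CPM in scrambled siRNA replicates 1, 2 and 3. Against the scrambled mean, the median gene lay at -0.26, -0.32 and -0.28 log2 units in EHMT1 siRNA replicates 1, 2 and 3, and at 0.06, 0.03 and -0.07 in scrambled siRNA replicates 1, 2 and 3. In each EHMT1 siRNA library 46 or 47 of the 47 genes lay below the scrambled mean. Scrambled replicate 3 was the nearest of its group to the EHMT1 siRNA libraries, with 40 of 47 genes below the mean of the other scrambled libraries. The spread was unequal: the median coefficient of variation of the 47 genes was 2.79% among EHMT1 siRNA libraries and 7.69% among scrambled libraries, beside 3.18% and 6.62% for the 9751 genes at a mean of 10 CPM or more. The mitochondrial share of counts was 4.63% to 4.83% in EHMT1 siRNA libraries and 4.29% to 5.41% in scrambled libraries, highest in scrambled replicate 2, and its part in the result was not tested.

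**Figure D3:**
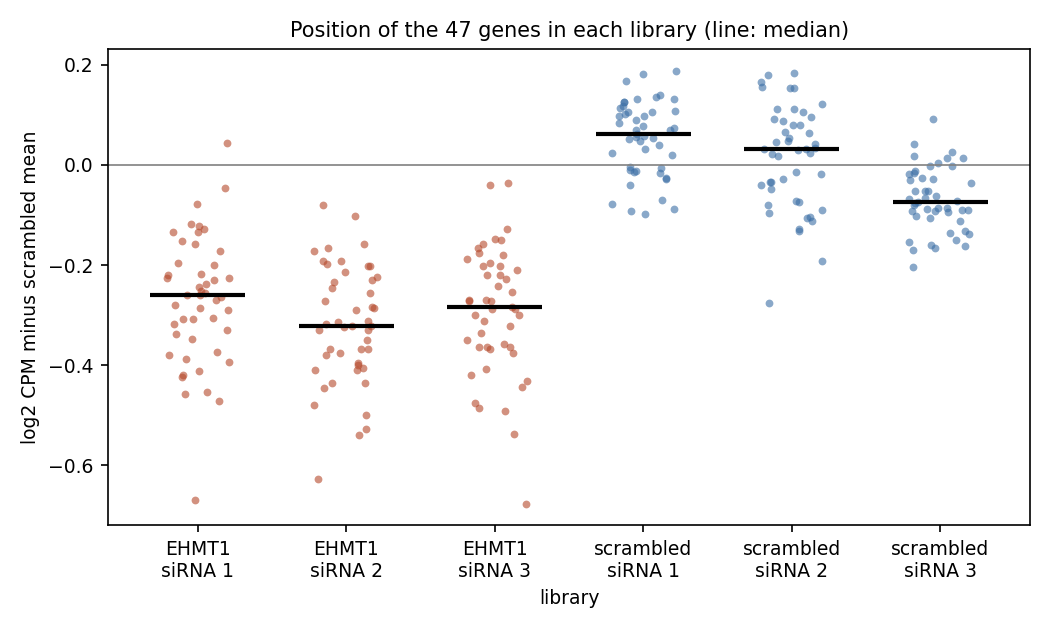
Position of each of the 47 replication genes in each library, as log2 CPM minus the gene's mean over the scrambled libraries (y axis), with the median as a line. The medians of the 3 EHMT1 siRNA libraries lie at -0.26, -0.32 and -0.28, and those of the scrambled libraries at 0.06, 0.03 and -0.07.

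The number of genes that passed the test was lower with an EHMT1 siRNA library missing. Without EHMT1 siRNA replicate 1, 2 or 3 the number that fell was 25, 20 or 23, and without scrambled replicate 1, 2 or 3 it was 33, 42 or 35, with the median log2 change between -0.32 and -0.25. These fits also called fewer genes overall when an EHMT1 siRNA library was missing: 3.16%, 2.54% and 2.76% of all genes tested fell, against 6.03%, 10.03% and 6.59% without scrambled replicate 1, 2 or 3. In all 6 of these fits 19 of the 36 genes fell: ORC1, CDC6, CDT1, GMNN, MCM2, MCM3, MCM4, MCM7, MCM10, CDC45, GINS2, PRIM1, PCNA, RFC1, RPA1, LIG1, CHAF1A, CHAF1B and TYMS. MCM5, GINS4, POLA1, POLD1, POLE, POLE2 and TK1 each lost its call in 4 of the 6 fits, among them all 3 without an EHMT1 siRNA library. MCM8, POLD2 and RFC4 lost it in those 3, MCM6, RFC2 and POLD3 in 2 of them, and ORC6, RFC5, FEN1 and RRM1 without EHMT1 siRNA replicate 2. ORC2, POLA2 and RPA2 passed in no fit.

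**Figure D4:**
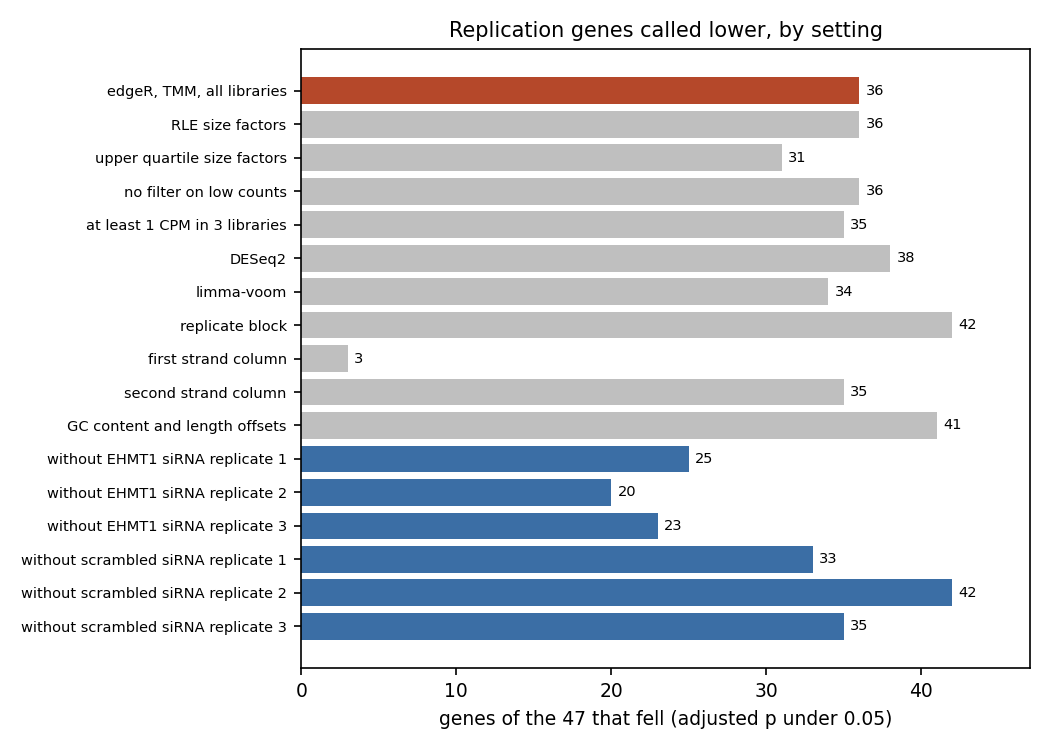
Number of the 47 replication genes that fell at an adjusted p under 0.05 (x axis) under each setting; the top bar is the edgeR fit reported here, grey bars change 1 processing choice and blue bars leave out 1 library. The count is 31 to 42 in each grey bar but the first strand column, which holds few reads and gives 3, and 20 to 42 in the blue bars.

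Further genes of the replication pathway fell as well. Of 46 listed, 45 were tested, 15 fell and 0 rose, which is 33.3% beside the 6.54% of all genes and the 10.7% of those at 10 CPM or more, with a median log2 change of -0.18. At an unadjusted p under 0.05, 1 of them was higher with edgeR, 0 with DESeq2 and 1 with limma-voom. The count of 15 changed to 8, 4 or 5 without EHMT1 siRNA replicate 1, 2 or 3. In those fits 3.16%, 2.54% and 2.76% of all genes fell. The count changed to 26 without scrambled replicate 2, a fit in which 10.03% of all genes fell. Among 15 fork factors tested 4 fell, led by CLSPN, the checkpoint mediator claspin, at -0.46, WDHD1, which ties the helicase to polymerase alpha, at -0.41, and ATAD5, which takes PCNA off DNA, at -0.38 (edgeR adjusted p = 0.000314, 0.000703 and 0.00175). CLSPN had 74.4, 77.2 and 76.6 CPM in the EHMT1 siRNA libraries, against 113, 109 and 92.9 CPM in the scrambled siRNA libraries, without overlap. Among 12 origin factors 4 fell, including TICRR and TOPBP1, which help CDC45 join the helicase, at -0.31 and -0.21, and ORC3 at -0.20 (edgeR adjusted p = 0.00629, 0.0218 and 0.0447). Histone and methylation copying genes had 4 falls among 8, with HELLS, a chromatin remodeller, at -0.28, SLBP, which binds histone transcripts, at -0.26 and the histone chaperone NASP at -0.28 (edgeR adjusted p = 0.00649, 0.0105 and 0.0121). Nucleotide enzymes had 3 among 10, including DCTPP1, which breaks down dCTP, at -0.33 and SHMT1, which charges folate, at -0.27 (edgeR adjusted p = 0.0158 and 0.0329).

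Genes of mitosis, which are transcribed later in the cell cycle, moved beside the replication genes. Of 20 tested, 17 fell and 0 rose (85.0%, beside 6.54% of all genes and 10.7% of those at 10 CPM or more), with log2 changes from -0.65 to 0.54 and a median of -0.29, and 0 were higher at an unadjusted p under 0.05 with edgeR, DESeq2 or limma-voom. Both ends of that range, PRC1 and NUSAP1, named after their values were seen, did not pass (edgeR adjusted p = 0.209 and 0.291). PRC1 had means of 0.545 CPM in EHMT1 siRNA and 0.862 CPM in scrambled siRNA libraries, and NUSAP1 0.737 and 0.506 CPM. Exon bases shared with other genes were looked up only for the 47 members, so these low levels can be understated. The other genes ran from -0.50 for CENPA to -0.099 for CCNB2. CENPF, CENPA and CENPE, genes of the kinetochore and centromere, led with -0.39, -0.50 and -0.38 (edgeR adjusted p = 0.000250, 0.000376 and 0.00125). Summed over the 20 genes the level was 2771, 2809 and 2744 CPM in EHMT1 siRNA replicates 1, 2 and 3, against 3489.6, 3543 and 3203 CPM in scrambled siRNA replicates 1, 2 and 3. Without EHMT1 siRNA replicate 1, 2 or 3, 10, 8 or 10 of them fell, beside 3.16%, 2.54% and 2.76% of all genes. The difference between the replication and the mitosis genes was not tested.

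The promoters of the members were searched for short motifs, since most of the genes fell together. RefSeq promoters on GRCh38.p14, from 250 bases before to 50 after the start, were at hand for 41 of the 47 genes. The E2F words searched, on both strands, were TTTCCCGC, TTTGGCGC, TTTCGCGC and TTTGCCGC; TTTCGCGC and TTTGGCGC can overlap each other's reverse complement and then count as 1 stretch. TTTCCCGC was in 9 of the 41 member promoters (1.66% of all 27305), TTTGGCGC in 7 (0.659%), TTTCGCGC in 5 (0.546%) and TTTGCCGC in 0 (0.564%). At least 1 match was found in 18 of 41 promoters, 43.9%, against 5.22% of the 12104 promoters of genes tested and 3.33% of all 27305. The share was 21.1% for the other replication pathway genes (8 of 38) and 17.6% for the mitosis genes (3 of 17). Matches were in 14 of 32 (43.8%) among members that fell and 4 of 9 (44.4%) among those not called. The words TTTGAA and TTCGAA of the CHR element, known from genes of late cell cycle phases, were in 2 of 41 member promoters (4.88%), 13 of 17 mitosis promoters (76.5%) and 11.5% of promoters of genes tested. CCAAT was in 24 of 41 member promoters (58.5%), 15 of 17 mitosis promoters (88.2%) and 36.4% of those of genes tested. A match is a string of letters and not a measured binding site.

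Shown first is the whole promoter of MCM6, the member with the most E2F matches, and of LIG1, the gene with the largest fall; E2F words are in capitals, and each runs 5′ to 3′ on the gene's strand, with its start at base 251 of 300.
MCM6 promoter, chr2:135876394-135876693 (minus strand): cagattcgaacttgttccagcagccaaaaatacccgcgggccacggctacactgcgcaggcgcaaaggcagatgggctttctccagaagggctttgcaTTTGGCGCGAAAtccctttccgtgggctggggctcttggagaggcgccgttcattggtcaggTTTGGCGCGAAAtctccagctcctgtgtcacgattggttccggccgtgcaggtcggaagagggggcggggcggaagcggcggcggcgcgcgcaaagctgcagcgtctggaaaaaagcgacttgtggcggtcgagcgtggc
LIG1 promoter, chr19:48170295-48170594 (minus strand): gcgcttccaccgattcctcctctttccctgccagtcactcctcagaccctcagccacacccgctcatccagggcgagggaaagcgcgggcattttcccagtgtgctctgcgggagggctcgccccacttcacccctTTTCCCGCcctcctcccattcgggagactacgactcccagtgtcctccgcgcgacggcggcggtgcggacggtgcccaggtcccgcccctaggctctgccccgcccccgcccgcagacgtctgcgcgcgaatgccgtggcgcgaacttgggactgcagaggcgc
MCM6 held 4 matches in 2 stretches, each an overlap of TTTGGCGC with TTTCGCGC on the other strand, which begin 152 and 90 bases before the start. LIG1 held 1 match, 114 bases before it.

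Windows of 30 bases around E2F words follow for other members. These are the loader genes CDC6 and CDT1, the ring genes MCM2, MCM3 and MCM7, the clamp PCNA, the polymerase gene POLE and TYMS. They were chosen after the matches were seen, and capitals again mark the words.
CDC6, chr17:40287875-40287904 (plus strand): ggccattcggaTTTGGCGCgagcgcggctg
CDT1, chr16:88803743-88803772 (plus strand): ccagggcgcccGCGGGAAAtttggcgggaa
MCM2, chr3:127598404-127598433 (plus strand): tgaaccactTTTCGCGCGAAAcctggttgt
MCM3, chr6:52284728-52284757 (minus strand): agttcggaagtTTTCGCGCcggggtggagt
MCM7, chr7:100101388-100101417 (minus strand): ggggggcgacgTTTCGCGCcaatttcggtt
PCNA, chr20:5126663-5126692 (minus strand): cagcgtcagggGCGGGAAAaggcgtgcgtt
POLE, chr12:132687342-132687371 (minus strand): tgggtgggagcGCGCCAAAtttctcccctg
TYMS, chr18:657603-657632 (plus strand): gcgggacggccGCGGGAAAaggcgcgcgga
The stretch of MCM2, which had the largest fall of the ring, reads the same on both strands, so it holds TTTCGCGC in either direction, from base 3 of the transcript. In MCM3 and MCM7 the same word begins 4 and 9 bases before the start, and in MCM3 it runs past the start. Both also held a match to TTTCCCGC that is not shown, at -174 in MCM3 and -187 in MCM7 from the start. ORC1, GMNN, MCM10, CDC45, PRIM1, RFC1, RPA1, CHAF1A and CHAF1B, which also fell in all fits that left out 1 library, held none of the 4 words in this window. Other spellings of the E2F site were not searched, so a missing word does not show that a site is missing.

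**Figure D5:**
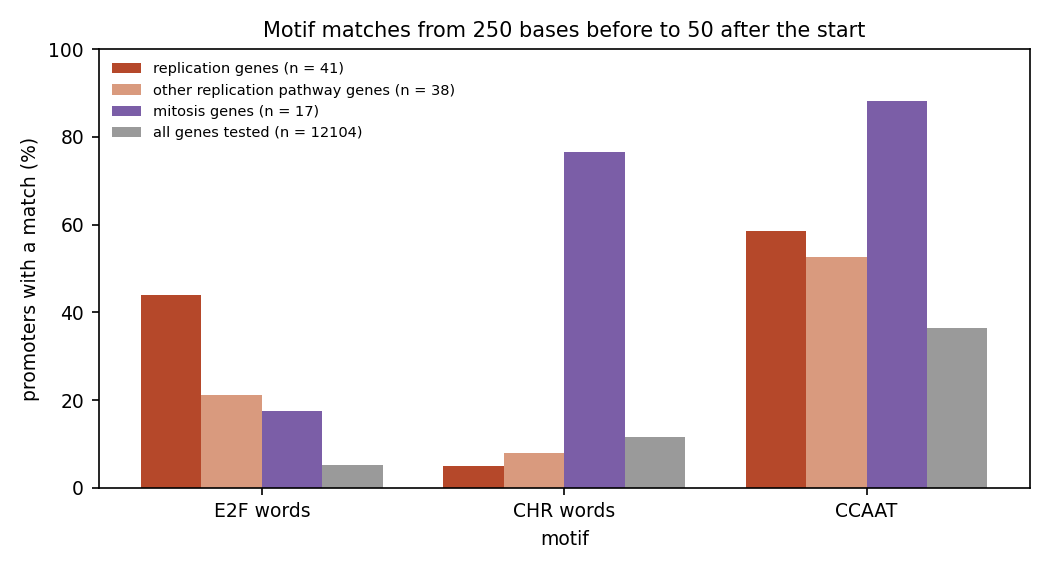
Share of promoters with at least 1 match (y axis, percent) to E2F words, CHR words or CCAAT, for the replication genes (41 promoters), other replication pathway genes (38), mitosis genes (17) and all genes tested (12104). E2F words are in 43.9% of promoters of replication genes, and CHR words in 76.5% of those of mitosis genes.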

How the data were processed

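Per the labels' protocols, mRNA was pulled down from RD cells with poly-T beads and the NEBNext Ultra kit was used. The deposited files held raw counts of reads per gene that the authors made without normalization, 1 file per library, with an unstranded column and 1 column per strand. Named in the submitters' processing notes, with no role given, are the genome hg19, STAR 2.5, HTSeq 0.6.1, bcl2fastq, CASAVA and DESeq2; the annotation is not given in the sources used here. Of 61552 identifiers, 58352 are in GENCODE 29 (GRCh38), which was used for exon lengths and overlaps, and 61399 had a symbol in the table of gene names. No gene coordinates of the files are printed; promoter coordinates are those of RefSeq on GRCh38.p14.

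Reads in no single gene, 20.0% to 21.2% of all, stayed out of library sizes and tests. Counts of the unstranded column were tested in R 4.3.3 with edgeR 4.0.16 (filterByExpr with minimum count 10, TMM, robust quasi-likelihood F test on group), and p-values were adjusted over all 18646 genes by Benjamini-Hochberg, threshold 0.05. SE is the absolute log2 fold change over the square root of F. The test takes equal spread in both groups. The code was tested on simulated counts. Floors of 3 counts cover counting error only.

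The members and the other lists were chosen with earlier results of these data known. The rule for named genes gave library values, in each role group, for the 3 members with the smallest adjusted p and the 1 with the largest; PRIM2, RRM2, RPA3 and MCM8, given by library or by mean, and UNG were added after their values were seen. From the other lists, 1 gene that the rule named is not reported here. Alternatives were RLE and upper quartile factors, other filters, DESeq2 1.42.0, limma-voom 3.58.1, a replicate block, each strand column, offsets for GC content and length, a threshold of 0.01, and leaving out each library.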

Additional observations from a re-analysis of the deposited data

How the results depend on the processing

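Settings changed were RLE or upper quartile factors, other filters, DESeq2, limma-voom, a replicate block, the second strand column, and GC content and length offsets. With these, 31 to 42 of the 47 replication genes fell. Of all genes tested, 3.57% (no filter on low counts) to 9.90% (GC content and length offsets) fell. At an adjusted p under 0.01, 24 replication genes fell, and the share of all genes at that threshold was not counted. In each of these settings 0 replication genes rose. The median log2 change lay between -0.32 and -0.25 in all settings and the EHMT1 log2 fold change between -1.43 and -1.25. In the first strand column, which holds 11.0% to 12.9% of strand counts, 3 replication, 0 other pathway and 1 mitosis genes fell, beside 0.546% of all genes tested there, and 4 members that did not pass there were above 0 (the ORC2 log2 fold change was 0.12, the POLA2 log2 fold change 0.046, the PRIM2 log2 fold change 0.53 and the RFC5 log2 fold change 0.058). Without 1 library, ORC2 lay between -0.094 and 0.023, above 0 without scrambled replicate 1. Leaving out 1 library gave 20 to 42 replication, 4 to 26 other pathway and 8 to 17 mitosis genes that fell. In those fits 2.54% to 10.03% of all genes fell. Other pathway genes that fell numbered 26 with GC content and length offsets, where 9.90% of all genes fell against 6.54%, and 6 at an adjusted p under 0.01, against 15. The cause was not tested. With the replicate block 42 replication genes, 22 other pathway and 17 mitosis genes fell, beside 8.75% of all genes; deviations of libraries with the same number correlated at 0.056, 0.015 and 0.025 for numbers 1, 2 and 3, below the 0.1 that would pair them, and scrambled replicate 2 correlated best with another number. Each replication gene had at least 306 counts in each library, so depth limits few of these values.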
